A study of Mus musculus with 10 samples.

Results

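The IL-6 family is a group of cytokines that signal through receptors containing gp130, the protein encoded by Il6st. The genes described here are 4 cytokine genes of the family (Il6, Lif, Osm and Il11) and 5 receptor genes (Il6ra, Il11ra1, Lifr, Osmr and Il6st). They were chosen by name, as members of the family, and make up 9 of the 53465 genes counted. All 9 were among the 15695 genes with enough reads to be tested.

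The study measured polyadenylated RNA of whole lung from BALB/c mice by RNA sequencing, in 5 control and 5 IL-33 libraries. The IL-33 mice received 1 µg of IL-33, a cytokine released by damaged epithelium and other barrier cells, in 35 µL through the nose once a day on 5 days. Their lungs were collected 24 h after the last dose. The controls are described as untreated, and whether they received the vehicle, like the age and sex of the mice, is not stated by the labels. No genetic change is named for either group. The labels do not say that each library came from a different mouse or that none was pooled, so p-values measure the spread between these libraries.

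In this family, IL-6 binds IL-6Rα (Il6ra) and IL-11 binds IL-11Rα (Il11ra1), and each complex then joins gp130, which carries the signal. LIF signals through the LIF receptor (Lifr) paired with gp130, and oncostatin M (Osm) through the OSM receptor (Osmr) paired with gp130. Within the cell the receptors activate JAK kinases, which phosphorylate STAT3 and, to varying degrees, other STAT proteins, while SOCS proteins restrain the signal. IL-6 is best known as a driver of the acute phase response, and LIF, oncostatin M and IL-11 act largely on epithelial, endothelial and stromal cells, which carry their receptors.

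The sequences upstream of 3 of the genes are shown. They belong to 2 cytokine genes that rose, whose windows held a searched string, and the shared receptor gene, whose window held none. These 3 were chosen for that contrast, which the other genes do not all follow. Il6ra, Lifr and Osmr fell and held no match. A window of Il11, which was called neither higher nor lower, did hold a match. Il11ra1 rose with no match, and Osm, which also rose, had no window to search. Whether matches go with a rise was not tested. The sequences come from RefSeq, build GRCm38.p6, on the + strand, read 5′ to 3′. Il6 spans chr5:30012864-30013113 (250 bases before its start), Lif chr11:4257318-4257556 (239 bases, ending where the annotated gene begins) and Il6st chr13:112463820-112464069 (250 bases). Capitals mark matches to the searched strings.
Il6: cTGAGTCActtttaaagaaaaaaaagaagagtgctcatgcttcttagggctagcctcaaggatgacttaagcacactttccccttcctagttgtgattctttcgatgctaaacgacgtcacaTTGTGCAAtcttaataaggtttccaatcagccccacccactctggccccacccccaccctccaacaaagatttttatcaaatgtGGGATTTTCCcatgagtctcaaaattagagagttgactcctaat
Lif: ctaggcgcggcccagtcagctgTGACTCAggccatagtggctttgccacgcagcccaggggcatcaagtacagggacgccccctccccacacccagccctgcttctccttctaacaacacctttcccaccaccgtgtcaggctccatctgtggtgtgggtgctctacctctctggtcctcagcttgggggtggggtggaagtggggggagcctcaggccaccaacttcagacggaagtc
Il6st: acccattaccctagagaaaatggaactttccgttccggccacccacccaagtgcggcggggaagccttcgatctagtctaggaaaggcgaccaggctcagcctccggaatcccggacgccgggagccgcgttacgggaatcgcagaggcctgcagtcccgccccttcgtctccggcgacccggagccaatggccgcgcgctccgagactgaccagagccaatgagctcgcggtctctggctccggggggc

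Strings of 4 transcription factor families were searched on both strands in the 250 bases before each RefSeq start. The AP-1 string TGANTCA occurred in 6.75% of all 32851 such windows, the STAT string TTCNNNGAA in 7.02%, the C/EBP string TTGCNNAA in 9.56% and the NF-κB string (GGGA, any base, then TTTCC) in 0.356%. The Il6 window held an AP-1 match that began 249 bases upstream of the start, a C/EBP match at 128 bases and an NF-κB match at 44 bases. The Lif window held an AP-1 match at 228 bases, and the window of the second Il11 start held one at 98 bases. No match was found in the windows of Il6ra, Il11ra1, Lifr, Osmr or Il6st, which says only that these letters are not there. Osm was not matched in the table. None of the matches was shared with another string at the same bases, and a match is a description of the letters, not of binding.

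After IL-33, 3 of the 4 cytokine genes rose and 4 of the 5 receptor genes fell. Il6 was 10.6-fold, Osm 5.23-fold and Lif 3.56-fold higher in the IL-33 libraries, while Lifr was 1.92-fold, Osmr 1.77-fold, Il6ra 1.57-fold and Il6st 1.24-fold lower. Il11ra1 was the receptor gene that rose, and Il11 passed the test in neither direction. With each library's trend on transcript length and GC content removed, 3 of the 5 receptor genes were lower: Il6st no longer passed (log2 fold change 0.046, edgeR adjusted p of 0.527), and Il6ra went from -0.65 to -0.31 on the log2 scale. In bulk tissue, more or fewer cells of a type and more or less RNA per cell cannot be told apart, for any of these genes. A gene is said to rise or fall where edgeR's quasi-likelihood test gave an adjusted p under 0.05 over all genes tested. By that rule 8 of the 9 genes were called, 4 higher and 4 lower, where 69.9% of all genes tested were called, 35.1% higher and 34.8% lower. In 7 of the 9 the values of the groups did not overlap, which was so for 56.5% of all genes tested. The median log2 fold change was 2.11 over the 4 cytokine genes and -0.65 over the 5 receptor genes, beside -0.0068 over all genes tested.

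**Figure D1:**
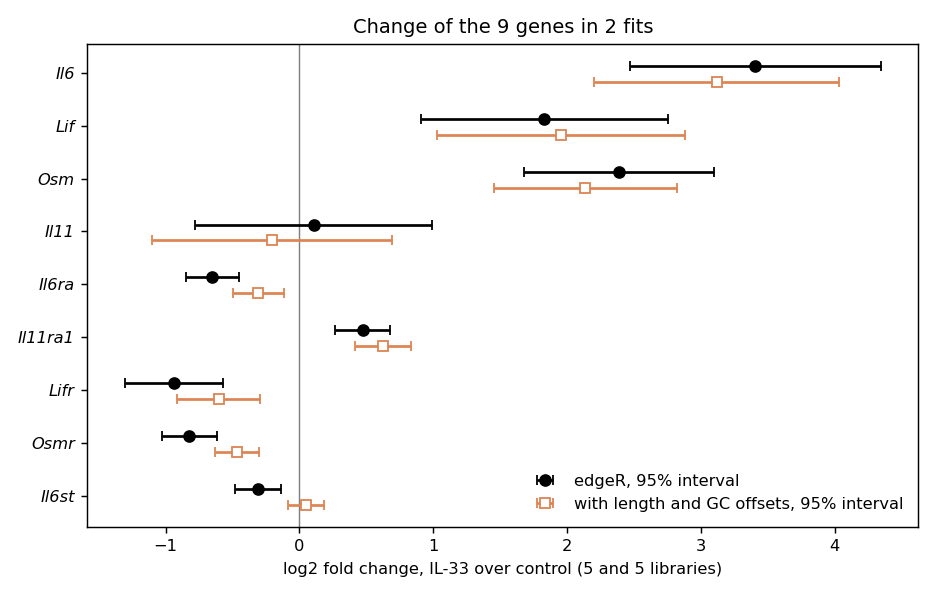
Log2 fold change of each of the 9 genes, IL-33 over control, with 95% intervals, from the fit with no offsets and from the fit in which each library's trend on transcript length and GC content was removed. Il6, Osm and Lif lie to the right of 0 and Il6ra, Lifr and Osmr to the left in both fits, while Il6st moves from -0.31 to 0.046.

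Depth bears on the cytokine genes in particular. Counted reads came to 8935159 to 13767118 in the control and 7805175 to 13178798 in the IL-33 libraries, and 3 reads stood for 0.218 to 0.384 CPM in a library, where CPM, counts-per-million, is the read count scaled to a library of common size. Il6 and Il11 lay near that level in the controls. Reads aligned to more than 1 place were 15.0% to 16.2% of the records in the controls and 19.97% to 22.8% in the IL-33 libraries, and their part in the results was not tested. Library sizes were adjusted by TMM, a scaling that allows for differences in composition between libraries.

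Il6 (ENSMUSG00000025746, chr5:30013114-30019981, GRCm38) encodes IL-6 itself. Its read counts were 10, 6, 9, 2 and 0 in control libraries 1 to 5 and 73, 56, 31, 72 and 52 in IL-33 libraries 1 to 5. In CPM these were 0.708, 0.658, 1.02, 0.175 and 0 against 7.22, 6.45, 4.03, 5.62 and 3.87. The lowest IL-33 library lay well above the highest control, with 284 reads in the IL-33 group and 27 in the control group. The mean was 0.511 ± 0.415 CPM in the controls and 5.44 ± 1.47 CPM after IL-33 (SD, n = 5 each). The log2 fold change was 3.41 (SE 0.43, 95% interval 2.47 to 4.34), with an adjusted p of 1.28e-05 in edgeR. Il6 passed the filter on low counts through the IL-33 group: 5 IL-33 libraries and 1 control library reached the filter's level. The control with no read allows up to 3 reads, so the control level is set by few counts.

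Osm (ENSMUSG00000058755, chr11:4236420-4241026) encodes oncostatin M, a product mainly of myeloid and T cells. The control libraries held 1.91, 4.93, 3.50, 2.28 and 4.18 CPM and the IL-33 libraries 15.4, 30.9, 16.8, 14.7 and 9.24 CPM. No value of one group lay within the other, although the IL-33 libraries ranged widely, with library 2 highest and library 5 lowest. The mean was 3.36 ± 1.27 CPM in the controls and 17.4 ± 8.05 CPM after IL-33, and the log2 fold change was 2.39 (SE 0.33, 95% interval 1.68 to 3.10) with an adjusted p of 2.61e-05 in edgeR.

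Lif (ENSMUSG00000034394, chr11:4257557-4272514) encodes leukemia inhibitory factor. Its values were 2.27, 9.65, 3.27, 4.74 and 4.75 CPM in the controls and 10.6, 29.1, 20.1, 21.1 and 6.11 CPM after IL-33. The groups overlapped, because control library 2, at 9.65 CPM, lay above IL-33 library 5. The mean was 4.94 ± 2.84 CPM in the controls and 17.4 ± 9.12 CPM after IL-33, and the log2 fold change was 1.83 (SE 0.43, 95% interval 0.91 to 2.75) with an adjusted p of 0.00181 in edgeR. Lif and Osm are neighbours on chromosome 11, with 16530 bases and no annotated gene between them. Both were highest in IL-33 library 2 and lowest in IL-33 library 5, and both were highest among the controls in control library 2.

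Il11 (ENSMUSG00000004371, chr7:4772373-4782859) encodes IL-11, known for its action on stromal cells and in fibrosis. It gave 7, 9, 5, 12 and 11 reads in the controls and 7, 9, 4, 22 and 5 reads after IL-33, sums of 44 and 47. Both groups lay at the limit of detection and overlapped over most of their range. The log2 fold change was 0.11 (SE 0.41, 95% interval -0.78 to 0.99) with an adjusted p of 0.828 in edgeR. A rise or a fall within that interval was not detectable at this depth. The sign rests on IL-33 library 4 and control library 1: the value was -0.36 without the first and -0.07 without the second.

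**Figure D2:**
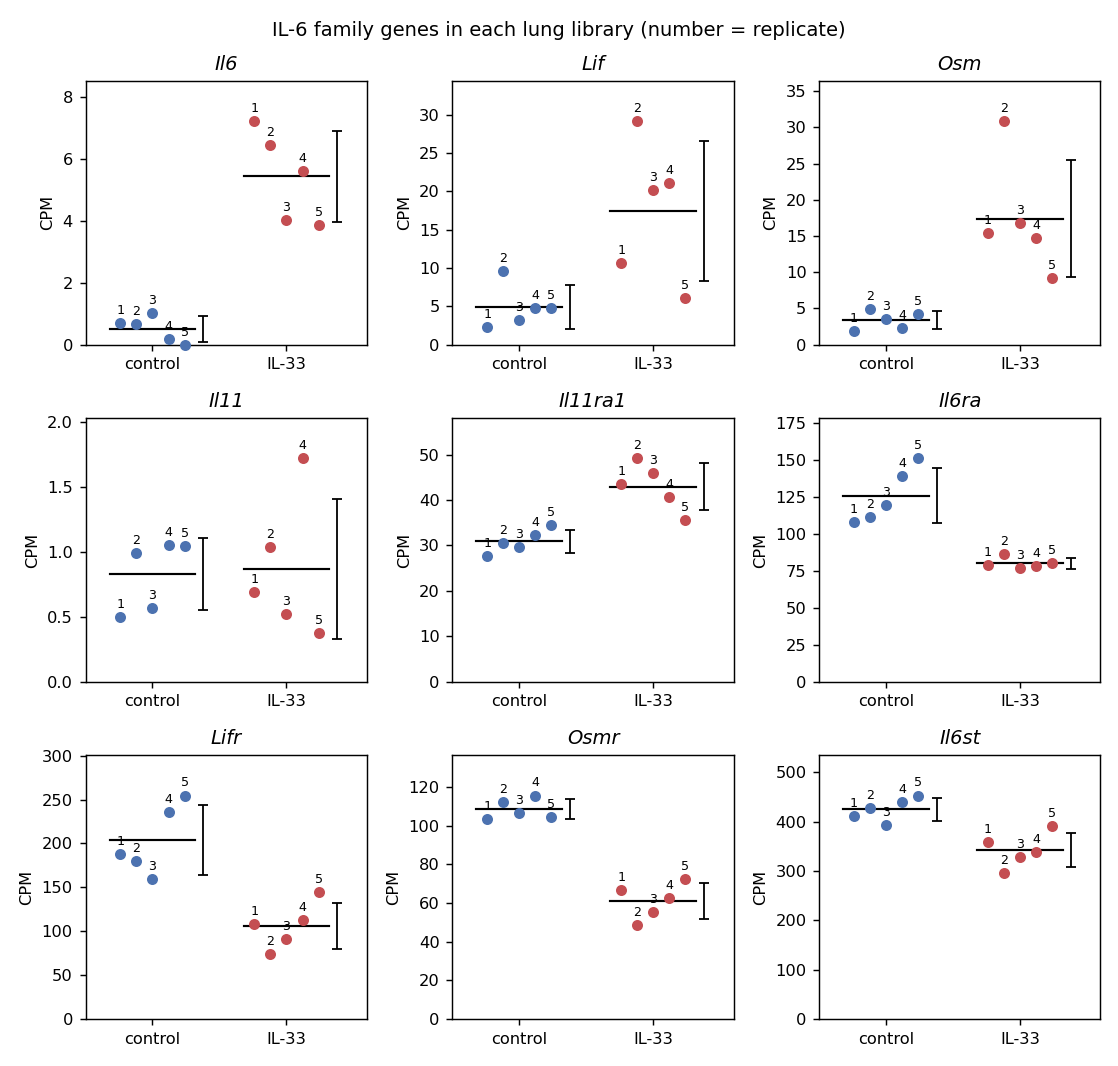
CPM of each of the 9 genes in the 5 control and 5 IL-33 libraries, 1 panel a gene, with numbered points for libraries, lines for group means and bars for the SD. The groups are apart for Il6, Osm and the 5 receptor genes, though for Il6st only by 393 CPM in the lowest control against 391 CPM in the highest IL-33 library, and they overlap for Lif and Il11.

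Of the receptor genes that bind 1 cytokine, Il6ra (ENSMUSG00000027947, chr3:89864059-89913196) encodes the chain that captures IL-6. It stood at 108, 112, 120, 140 and 151 CPM in the controls and at 79.0, 86.5, 77.1, 78.2 and 80.5 CPM after IL-33. All IL-33 libraries fell within a narrow band below the lowest control. The mean was 126 ± 18.6 CPM in the controls and 80.2 ± 3.69 CPM after IL-33, and the log2 fold change was -0.65 (SE 0.09, 95% interval -0.85 to -0.45) with an adjusted p of 3.15e-05 in edgeR.

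Il11ra1 (ENSMUSG00000073889, chr4:41699989-41769474) encodes the chain that binds IL-11. Its values were 27.6, 30.5, 29.6, 32.4 and 34.4 CPM in the controls and 43.4, 49.2, 45.9, 40.7 and 35.5 CPM after IL-33. IL-33 library 5 exceeded the highest control only narrowly, and the others lay further apart from it. The mean was 30.9 ± 2.61 CPM in the controls and 42.9 ± 5.19 CPM after IL-33, and the log2 fold change was 0.47 (SE 0.09, 95% interval 0.27 to 0.67) with an adjusted p of 0.000554 in edgeR. Its level is uncertain, since 35.95% of the 75-base windows of its transcripts also occur in the near copies Il11ra2 and Gm13305. Il11ra2 had 0 reads in all 10 libraries, but 100% of its windows occur in those genes too, so uniquely aligned reads could not show its level.

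Lifr (ENSMUSG00000054263, chr15:7090614-7197489) encodes the receptor that pairs with gp130 for LIF. It measured 188, 180, 159, 236 and 255 CPM in the controls and 108, 74.3, 91.1, 112 and 145 CPM after IL-33. The highest IL-33 library, number 5, stayed below the lowest control, number 3. The mean was 203 ± 40.0 CPM in the controls and 106 ± 26.3 CPM after IL-33, with a log2 fold change of -0.94 (SE 0.17, 95% interval -1.30 to -0.57) and an adjusted p of 0.000252 in edgeR.

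Osmr (ENSMUSG00000022146, chr15:6813577-6874969) encodes the receptor that pairs with gp130 for oncostatin M. The controls were close together at 103, 112, 107, 116 and 105 CPM, and the IL-33 libraries held 66.9, 48.6, 55.1, 62.7 and 72.2 CPM. The gap between the groups exceeded the range within either. The mean was 109 ± 5.28 CPM in the controls and 61.1 ± 9.39 CPM after IL-33, with a log2 fold change of -0.82 (SE 0.09, 95% interval -1.03 to -0.62) and an adjusted p of 5.4e-06 in edgeR. Osmr and Lifr lie on chromosome 15, with 215644 bases and 1 annotated non-coding gene between them, and both fell.

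Il6st (ENSMUSG00000021756, chr13:112464070-112510086) encodes gp130, the chain shared by all 4 cytokines. It held 411, 428, 393, 440 and 453 CPM in the controls and 358, 297, 328, 338 and 391 CPM after IL-33. The groups met almost edge to edge, control library 3 against IL-33 library 5. The mean was 425 ± 23.5 CPM in the controls and 343 ± 35.1 CPM after IL-33, with a log2 fold change of -0.31 (SE 0.08, 95% interval -0.48 to -0.14) and an adjusted p of 0.00359 in edgeR. This call was lost when the trend on transcript length and GC content was removed from each library, which gave a log2 fold change of 0.046 and an adjusted p of 0.527 in edgeR.

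That trend bears on the receptor genes, because their transcripts are long. Exonic length was 8642 bases for Il6ra, 10776 for Lifr, 11099 for Il6st and 12113 for Osmr, against 2272 for Osm, 2428 for Il6, 4350 for Lif and 4471 for Il11ra1. Among genes split into 10 equal groups by exonic length, the median log2 fold change went from 0.72 in the shortest group to -0.31 in the longest, the group of Lifr, Il6st and Osmr, where 56.2% of genes were called lower and 16.96% higher. Il6st lay at the median of that group, Lifr lay 0.63 and Osmr 0.51 below it on the log2 scale, and Il6ra lay 0.38 below the median of its own group, -0.27.

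The trend could be seen in single libraries too. The slope of log2 expression on the doubling of length, relative to the mean of all libraries, ran from 0.0891 to 0.164 in the controls and from -0.201 in IL-33 library 2 to -0.0708 in IL-33 library 5. IL-33 library 2 had the lowest Lifr, Osmr and Il6st and the highest Lif, Osm and Il11ra1, and IL-33 library 5 had the highest Lifr, Osmr and Il6st and the lowest Lif and Osm. Whether length or RNA quality plays a part in the changes was not tested.

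With the length and GC trends removed, Lifr stayed lower at a log2 fold change of -0.60 (edgeR adjusted p of 0.0023), Osmr at -0.46 (0.000127) and Il6ra at -0.31 (0.00802). Il11ra1 rose by 0.62 (8.2e-05), Il6 by 3.12 (2.64e-05), Osm by 2.14 (5.18e-05) and Lif by 1.96 (0.00128), each on the log2 scale. The counts were then 4 higher and 3 lower of the 9, beside 37.4% higher and 30.8% lower of all 15680 genes in that fit.

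**Figure D3:**
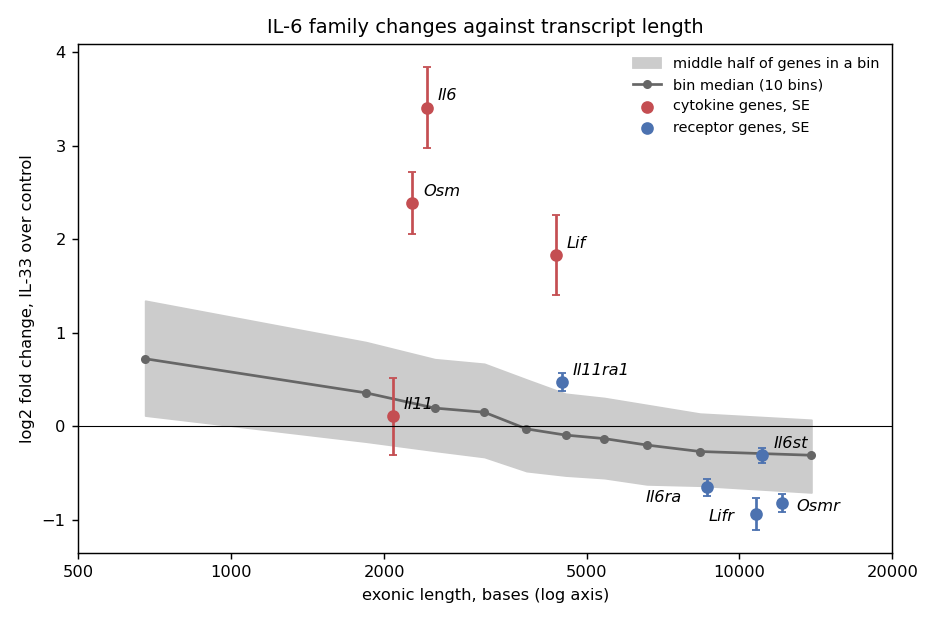
Median log2 fold change, IL-33 over control, of genes in 10 groups of exonic length (log axis, bases) with the quartiles as a band, and the 9 genes at their own length with their SE. The medians go down from left to right, and Il6st sits on the trend while Il6, Osm and Lif sit above it and Il6ra, Lifr and Osmr below it.

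Levels of different genes were compared per length, as CPM per kilobase of exonic length (RPKM). In the controls Il6st was the most abundant at 38.3 ± 2.12 RPKM, followed by Lifr at 18.9 ± 3.71, Il6ra at 14.6 ± 2.15, Osmr at 8.96 ± 0.436 and Il11ra1 at 6.91 ± 0.584. The cytokine genes lay below all receptor genes: Osm at 1.48 ± 0.558, Lif at 1.13 ± 0.652, Il11 at 0.398 ± 0.132 and Il6 at 0.211 ± 0.171 RPKM. The neighbours Lifr and Il6ra, Osm and Lif, and Il11 and Il6 overlapped in range, and the other neighbours in this order did not.

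In the IL-33 libraries Il6st was still highest at 30.9 ± 3.17 RPKM and stood apart from the rest. Below it lay Lifr at 9.84 ± 2.44, Il11ra1 at 9.60 ± 1.16, Il6ra at 9.29 ± 0.427, Osm at 7.66 ± 3.54, Osmr at 5.04 ± 0.775, Lif at 4.002 ± 2.10 and Il6 at 2.24 ± 0.606 RPKM, each overlapping the next. Il11, at 0.417 ± 0.257 RPKM, was the lowest and overlapped none of them.

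**Figure D4:**
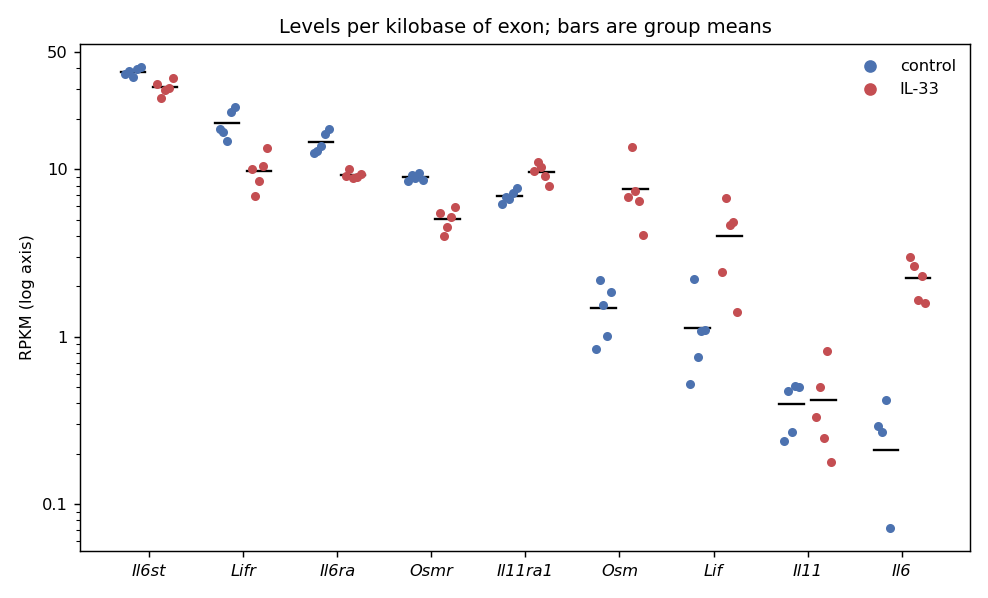
RPKM of the 9 genes on a log axis for the control and the IL-33 libraries, with points for libraries and bars for group means. One control library with no Il6 read is not drawn, since 0 has no place on a log axis. Il6st is the highest in both groups, and Osm, Lif and Il6 come up towards the receptor genes after IL-33.

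Each cytokine gene was set against the receptor gene that binds its product, as RPKM of the cytokine per 100 RPKM of the receptor in the same library. Osm per 100 Osmr had a lowest, median and highest value of 9.87, 17.5 and 23.4 in the controls and of 68.2, 125 and 339 after IL-33. Osm RNA exceeded Osmr RNA per length in 4 of the 5 IL-33 libraries and in no control. Il6 per 100 Il6ra was 0, 2.10 and 3.02 in the controls and 17.1, 25.6 and 32.5 after IL-33, again with no overlap. Lif per 100 Lifr was 2.99, 4.98 and 13.3 against 10.5, 46.5 and 97.2, where the groups overlapped. Il11 per 100 Il11ra1 was 3.86, 6.53 and 6.99 against 2.25, 3.43 and 9.07, also overlapping. These ratios combine changes already tested gene by gene and were given no test of their own. The length trend was not removed from the ratios, and Osm has 2272 exonic bases against 12113 for Osmr.

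The make-up of the receptor RNA also differed. Of the summed RPKM of the 4 ligand-binding receptor genes, Il11ra1 made up 14.1% ± 0.841 in the controls and 28.7% ± 4.89 after IL-33 (SD, n = 5 each), with the highest control at 15.0% and the lowest IL-33 library at 21.7%. Lifr made up 38.03% ± 3.01 and 28.9% ± 5.56, Osmr 18.4% ± 2.18 and 14.9% ± 1.54, and Il6ra 29.5% ± 1.45 and 27.6% ± 2.26, and the groups overlapped for these 3. The sum of the 4 genes was 1.29 ± 0.103 times the Il6st level in the controls and 1.10 ± 0.0589 times after IL-33. The length trend was not removed from these shares and sums, and its part in them was not tested. Il11ra1 has 4471 exonic bases, against 8642 to 12113 for Il6ra, Lifr and Osmr. Its level is also uncertain, since 35.95% of its 75-base windows occur in other genes.

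Within the groups, the genes varied together in some pairs. Over the deviations of the 10 libraries from their group means, Pearson's r was 0.937 for Lifr with Il6st, 0.858 for Osmr with Il6st and 0.747 for Lifr with Osmr, which are long transcripts of like length. It was 0.815 for Lif with Osm, 0.0163 for Il6 with Lif and 0.171 for Il6 with Osm. It was -0.667 for Osm with Osmr and -0.692 for Il6 with Il6ra. Every r of Il6 rests in part on 10, 6, 9, 2 and 0 reads in control libraries 1 to 5. With so few reads, these r values cannot show whether Il6 varies with the other genes or apart from them. All the r values are limited in another way too. These are descriptions over 10 libraries that share depth and the length trend.

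The genes whose deviations were most like each cytokine gene's were taken from 15520 genes (15521 for Il11), with Pearson's r over the 10 libraries. For Lif they were Junb (0.962), Zfp36l1 (0.948) and Runx1 (0.948). For Osm they were Tspan31 (0.967), Gm5805 (0.957) and S100a1 (0.946). For Il6 they were C1s2 (0.953), Gstm2 (0.943) and Mfap1a (0.935), and for Il11 Klhl21 (0.950), C2cd4b (0.927) and Rnf144b (0.920). The highest of so many correlations over 10 libraries are high in any case, and no p is given.

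Junb is an immediate early gene, and 3 libraries stood apart for another gene of that class. Fos was at 253 CPM in control library 2 and at 348 and 338 CPM in IL-33 libraries 2 and 4, while the other 7 libraries lay between 39.3 and 74.8 CPM. Without these 3 libraries the log2 fold change was 3.40 for Il6, 2.23 for Osm, 1.68 for Lif, -0.71 for Il6ra, 0.42 for Il11ra1, -0.86 for Lifr, -0.73 for Osmr and -0.24 for Il6st, with edgeR adjusted p values of at most 0.0405. The counts were again 4 higher and 4 lower, and Il11 was not tested, having too few reads.

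The remaining members of the family had few counted reads or changed in both directions. Of 8 further cytokine and cytokine subunit genes, 4 were tested, with 1 higher and 2 lower. The counts of this list and the lists that follow stand beside 35.1% higher and 34.8% lower of all genes tested. With the length and GC trends removed, these shares were 37.4% and 30.8%. Counts near those shares do not set a list apart from other genes. Ebi3, a subunit of IL-27 and IL-35, was between 1.42 and 2.82 CPM in the controls and between 9.46 and 14.2 CPM after IL-33, a log2 fold change of 2.49 (SE 0.19, edgeR adjusted p of 1.54e-07). Its IL-27 partner Il27 gave 21 reads in all controls and 10 in all IL-33 libraries and was not tested. Clcf1, which encodes a cytokine of the family, fell by 0.41 on the log2 scale (SE 0.10, edgeR adjusted p of 0.00214), and 6.05% of the 75-base windows of Clcf1 also occur in another gene. Ctf1, which encodes cardiotrophin, did not pass, with means of 4.64 and 4.17 CPM. With the length and GC trends removed Ctf1 was called lower, at -0.50 with an edgeR adjusted p of 0.0205, and the list had 1 higher and 3 lower. Cntf had 4 and 7 reads in the groups, but 77.48% of its 75-base windows also occur in the overlapping gene Zfp91, so most of its reads could not be counted and its level is not known. Ctf2 and Il31 had no reads.

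Of 4 further receptor genes, 2 were tested. Il27ra, the receptor chain for IL-27, was 12.2 ± 1.82 CPM in the controls and 46.4 ± 7.56 CPM after IL-33, and the log2 fold change was 1.92 (SE 0.13, edgeR adjusted p of 5.32e-08). Cntfr, the receptor chain for ciliary neurotrophic factor, was 7.91 ± 1.22 CPM in the controls and 2.68 ± 1.06 CPM after IL-33, and the log2 fold change was -1.52 (SE 0.23, edgeR adjusted p of 6.7e-05). Il31ra was below the filter, at 15 reads in the controls and 68 after IL-33, and no control lay within the IL-33 range.

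Of 11 genes of signal transduction, 3 rose, 4 fell and 4 did not pass, with a median log2 fold change of 0.02. Among all genes tested, 35.1% were higher and 34.8% lower. Grb2, an adaptor to the Ras pathway, rose by 0.63 (SE 0.07, edgeR adjusted p of 2.6e-06) and Stat5a by 0.45 (SE 0.08, 0.000292) on the log2 scale. Stat5a shares 5.12% of its 75-base windows with Stat5b, which fell. Gab1, a docking protein, changed by -0.91 (SE 0.12, edgeR adjusted p of 2.14e-05) and Ptpn11, which encodes the phosphatase SHP2, by -0.84 (SE 0.11, 1.35e-05). Stat3, the main transducer of the family, lay at 232 ± 10.5 CPM in the controls and at 234 ± 9.67 CPM after IL-33, with a log2 fold change of 0.02 (SE 0.06, 95% interval -0.11 to 0.14). With the length and GC trends removed it was 0.41 with an edgeR adjusted p of 6.87e-05, so its call depends on that step. The same step took the fall of Jak1 from -0.27 to -0.02 and that of Stat5b from -0.23 to -0.00. The counts became 5 higher and 2 lower of 11, beside 37.4% higher and 30.8% lower of all genes in that fit. Stat3, Jak1 and Stat5b, and Socs3, Cish, Junb and Fos elsewhere, were chosen after their values were seen.

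Of 11 genes of inhibition and receptor shedding, 5 rose, 1 fell and 5 did not pass, with a median log2 fold change of 0.24. Among all genes tested, 35.1% were higher and 34.8% lower. Socs1, an inhibitor of JAK kinases, was 2.75 ± 0.730 CPM in the controls and 18.2 ± 3.64 CPM after IL-33, and the log2 fold change was 2.72 (SE 0.20, edgeR adjusted p of 1.04e-07). Ptpn2, a phosphatase that acts on JAK and STAT proteins, rose by 1.39 (SE 0.16, edgeR adjusted p of 5.46e-06), and Cish by 1.38, on the log2 scale. Pias3, an inhibitor of STAT3, fell by 0.61 (SE 0.10, edgeR adjusted p of 0.000139). Socs3, the inhibitor that binds gp130, was at 35.3, 68.9, 34.0, 32.9 and 42.0 CPM in the controls and at 50.4, 64.6, 44.1, 56.7 and 27.0 CPM after IL-33. Its groups overlapped through control library 2, the highest of all, and IL-33 library 5, the lowest of all. The other controls, at 32.9 to 42.0 CPM, lay below the other IL-33 libraries, at 44.1 to 64.6 CPM. With all libraries the log2 fold change was 0.19, with an edgeR adjusted p of 0.491. Adam10 and Adam17, whose proteases shed IL-6Rα, did not pass either, with log2 fold changes of 0.03 and 0.10. Once the length and GC trends were removed, 7 genes of the list were higher, Adam17 among them at 0.33, and 1 lower. Of all genes in that fit, 37.4% were higher and 30.8% lower.

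Of 27 genes known to respond to STAT3 or to rise in the acute phase, 22 were tested. Among these 10 rose, 6 fell and 6 did not pass, beside 35.1% higher and 34.8% lower of all genes tested. The median log2 fold change of the list was 0.40. Saa3, an acute phase protein made in the lung, was 8.16 ± 1.92 CPM in the controls and 136 ± 45.7 CPM after IL-33, and the log2 fold change was 4.07 (SE 0.24, edgeR adjusted p of 2.13e-08). Timp1, an inhibitor of matrix proteases, rose by 4.61 (SE 0.27, 1.77e-08). The largest falls were of Vegfa, the endothelial growth factor, by 1.78 (SE 0.11, 4.08e-08), and of Icam1, an adhesion molecule, by 0.56 (SE 0.08, 2.63e-05), so the list did not move in 1 direction. With the length and GC trends removed, 9 rose and 4 fell, beside 37.4% higher and 30.8% lower of all genes in that fit.

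Over all 61 genes of these lists, 50 were tested, 20 were higher, 14 lower and 16 not called, beside 35.1% higher and 34.8% lower over all genes. The median log2 fold change was 0.16.

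**Figure D5:**
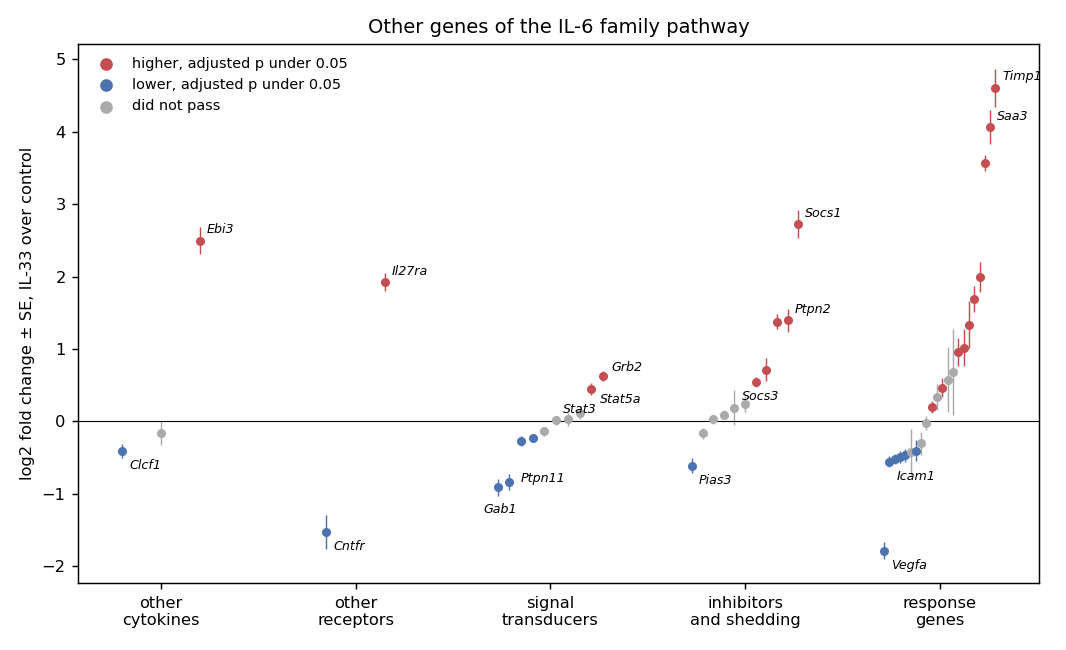
Log2 fold change with its SE (vertical axis), IL-33 over control, of the tested genes reported from the lists of other cytokines, other receptors, signal transducers, inhibitors and shedding, and response genes. Rises and falls stand beside each other in every list, and Timp1 and Saa3 lie highest. Red marks genes that rose, blue those that fell and grey those that did not pass.

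Markers of the cells known to make or bind these cytokines moved between the groups as well, and their part in the results was not tested. The counts of markers called stand beside 35.1% higher and 34.8% lower of all genes tested. Lists with counts near those shares do not set their markers apart from other genes. Beside the rises of Il6, Osm and Lif, 6 of 7 neutrophil markers rose and their sum was 88.6 to 267 CPM in the controls and 577 to 793 CPM after IL-33. Without Retnlg and S100a9, the markers that differed most, the sums of the other 5 overlapped, at 56.6 to 169.8 against 167.4 to 282 CPM. The markers of recruited monocytes and macrophages rose in 4 of 6 and fell in 1, with sums of 234 to 300.5 CPM against 1152 to 1857 CPM. Without Spp1 and Mmp12, the markers that differed most, the other 4 summed to 185 to 242 against 330.1 to 383 CPM. Those of alveolar macrophages rose in 4 of 6 and fell in 1, with sums of 481 to 695 against 3703 to 4695 CPM that were carried by Chil3, at a mean of 180.5 CPM in the controls and 3599 CPM after IL-33. Without Chil3 the other 5 summed to 343.5 to 442 against 458 to 614 CPM. Without Chil3 and Mrc1 the sums of the other 4 overlapped, at 245 to 331 against 312 to 430 CPM. The largest of those was Car4, which did not pass, at means of 241 and 259 CPM. Marco was the marker that fell, at means of 3.52 and 1.59 CPM, so the list did not move in 1 direction. The markers of eosinophils rose in 5 of 6 with 1 lower (15.0 to 17.1 against 65.5 to 82.3 CPM), and those of group 2 innate lymphoid cells in 5 of 5 (24.2 to 32.2 against 510.2 to 720 CPM). The eosinophil marker that fell was Siglecf, at means of 14.4 and 9.75 CPM. Siglecf alone lay between 12.98 and 15.3 CPM in the controls and made up most of the control sum. That sum is therefore no measure of the other eosinophil markers, and which cells the Siglecf reads came from was not tested. Markers of T cells rose in 3 of 5 with 1 lower (41.2 to 80.7 against 83.2 to 120 CPM). Without Cd3g the sums of the other 4 overlapped, at 33.22 to 66.35 against 52.88 to 74.59 CPM. Markers of B cells rose in 4 of 4 (34.4 to 232 against 215 to 354 CPM). Of 5 mast cell and basophil markers, 3 were tested and 2 rose (2.46 to 6.32 against 10.6 to 13.5 CPM for all 5). Without Cpa3 the other 4 summed to 1.403 to 4.288 against 5.231 to 8.804 CPM. Without Cpa3 and Tpsb2 the sums of the other 3 overlapped, at 0.2853 to 3.047 against 1.497 to 6.825 CPM. Of the defining markers in the controls, Ly6g of neutrophils was at 0 in 3 libraries, Epx of eosinophils in 4, Ear6 in 2 and Prg2 in 1, and Mcpt8 of basophils in 2.

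Beside the falls of Lifr, Osmr, Il6ra and Il6st, 4 of 5 endothelial markers fell and none rose, with sums of 3691 to 4088 CPM in the controls and 1764 to 2255 CPM after IL-33. Here too the counts stand beside 34.8% lower and 35.1% higher of all genes tested. Lung epithelial markers fell in 3 of 5, with sums of 30820 to 34090 against 22980 to 26120 CPM. Without Scgb1a1 the sums of the other 4 overlapped, at 13650 to 16800 against 11900 to 13760 CPM. Smooth muscle and pericyte markers fell in 4 of 5 and rose in 1 (876 to 1094 against 821 to 910 CPM, or 613 to 756 against 365 to 480.5 CPM without Acta2, the one that rose), and mesothelial markers fell in 2 of 4 and rose in 1 (106 to 153 against 49.9 to 106 CPM). Without Upk3b the sums of the other 3 mesothelial markers overlapped, at 63.2 to 95.1 against 36.6 to 78.4 CPM. Fibroblast markers were mixed, with 2 higher and 3 lower of 5 (1897 to 2306 against 2235 to 3176 CPM), and without Col1a1 and Col1a2 the other 3 summed to 716 to 885 against 325 to 459 CPM. Heart muscle markers fell in 2 of 4 (392 to 1562 against 93.9 to 392.5 CPM). The lung epithelial markers were thus abundant in all 10 libraries, which the tissue label names as lung.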

How the data were processed

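For each of the 10 libraries the deposited file holds raw read counts by gene, not normalized. PolyA-enriched RNA was made into stranded libraries, per the labels' protocols. FastQC 0.11.6, MultiQC 1.6, STAR 2.5.4b, HTSeq 0.9.1 and GRCm38 are named in the submitters' processing notes. Not given in the sources used here are the annotation release, the read length and whether counting used strand, so reads of overlapping or antisense genes could not be told apart. Of the 53465 gene identifiers, 53274 matched GENCODE M21, which gave symbols, positions and exonic lengths. Summary entries without a gene were dropped from library sizes and tests. They held 10.4% to 13.7% of records in no gene, 0.862% to 0.945% ambiguous and 15.0% to 22.8% aligned to several places. No 2 libraries of a group were duplicates: the chi-square of their counts, divided by its degrees of freedom, was 5.44 to 30.0.

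Groups came from the titles. The model, fitted to all 10 libraries in edgeR 4.0.16 under R 4.3.3, had a term for group. It used filterByExpr, TMM factors of 0.969 to 1.03 and quasi-likelihood tests, and p-values were adjusted by Benjamini-Hochberg over 15695 genes. The biological coefficient of variation was 0.136. SEs are the absolute log2 fold change over the square root of F. The fit was also run on simulated data in which few genes changed. In these data 69.9% of genes tested were called, so that run cannot show how the fit behaves here. Intervals cover the spread between libraries, and limits of 3 reads cover counting error only.

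The alternatives comprised size factors of DESeq2, library size with no further factor, other filters, DESeq2 1.42.0, limma-voom (limma 3.58.1), a replicate block, offsets for length and GC content (natural splines of 5 degrees of freedom), an adjusted p of 0.01, and each library left out. Leaving out the 3 libraries with high Fos was added after seeing the data.

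The genes named are the 9 family members; of each pathway list the called genes with the largest rises and falls, up to 2 each way, at a mean of at least 1 CPM; and the 3 genes most like each cytokine gene over log2(CPM + 0.5). Some list genes that entered the counts are not reported here by name or in figures. The members, lists and tests were chosen with earlier results of these data known.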

Additional observations from a re-analysis of the deposited data

Results flagged for a closer look

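Control library 2 stood apart from the other controls for 2 genes of the response and inhibitor lists: Socs3 at 68.9 CPM, where the others lay between 32.9 and 42.0 CPM, and Fos at 253 CPM, where the others lay between 69.6 and 74.8 CPM. In both the gap to the nearest control was large for the range of the group. Such a gap was looked for in 62 sets of 5 libraries (genes within a group) and found in these 2. Chance alone gives about 1 in 20, so 2 in 62 is no more than chance gives.

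Records outside the gene counts also differed between the groups. Reads aligned to several places were at least 19.97% in every IL-33 library and at most 16.2% in every control. Reads in no annotated gene were at least 11.4% in every IL-33 library and at most 11.1% in every control. Neither was tested further.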

How the results depend on the processing

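The counts of genes called higher and lower, over all genes, the 9 members and the pathway lists, stayed within 1.5 times their values under every alternative run. Il6, Osm, Lif, Il6ra, Il11ra1, Lifr and Osmr kept their direction and their call throughout, Il6 between 3.08 and 3.89 and Lif between 1.57 and 2.19 on the log2 scale. The sign of Il11 turned with limma-voom (-0.030), with length and GC offsets (-0.20), with these and the block (-0.29), without control library 1 (-0.07) and without IL-33 library 4 (-0.36), and leaving out 1 library at a time gave -0.36 to 0.33. That of Il6st turned with length and GC offsets (0.046) and with these and the block (0.045). A filter of at least 1 CPM in 5 libraries left out Il11. Depth limits Il6 in the controls and Il11 in both groups.

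With the replicate number as a block, 5574 genes were higher and 5548 lower, and of the members 4 and 4. Same-numbered libraries did not deviate together in every pair (correlations 0.268, 0.234, 0.0652, -0.0483 and 0.169). IL-33 libraries 1, 2, 3 and 5 correlated best with the control of their own number, and IL-33 library 4 with control library 2 (0.301). Of the controls, library 1 correlated best with its own number, and libraries 2, 3, 4 and 5 with other numbers. The labels do not say whether the numbers pair the libraries, and the main fit does not use them.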
